A study of Rattus norvegicus with 8 samples.

Results

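The genes described here mark the endothelial cells of the blood-brain barrier. They were chosen by name as Cldn5, Ocln, Tjp1, Pecam1, Slc2a1, Abcb1a, Flt1, Tek, Cdh5 and Esam, and every probe set annotated to 1 of these symbols alone was taken. That gave 14 probe sets of 9 genes, of 14217 genes named on the array, among the 31042 probe sets of the Affymetrix Rat Genome 230 2.0 array that are not controls. Cdh5 had no such probe set in the annotation used, and 1 probe set shared by Abcb1a and Abcb1b was left out. A filter on dim probe sets, at a log2 signal of 4.35 averaged over the arrays, passed 10 of the 14, with at least 1 for each of the 9 genes.

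RNA came from the basolateral amygdala (the lateral and the basal nucleus) of rats, cut out by laser on the operated side. All rats were operated, all were habituated to the conditioning apparatus in 5 sessions, and all received tones and footshocks on day 8, so no group is untrained. Control rats were not stimulated, whereas epileptogenic rats went through status epilepticus after stimulation of the amygdala, with at least 40 HAFDs (a term the labels leave unexplained) in its first 3 h, and had no spontaneous seizures during the study. In paired training, given 2 times, a tone of 75 dB lasting 20 s ended together with a footshock of 1.5 mA lasting 1 s, and in unpaired training the same shock came before the tone. Tissue was taken 3 h later. Control and epileptogenic rats, each with paired or unpaired training, make 4 groups of 2 arrays, lettered A and B. Each array holds RNA pooled from 2 rats after 2 rounds of amplification from 30 ng, so the 8 arrays stand for 16 rats. Strain, sex and age are not given in the sources used here.

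The endothelium of brain capillaries forms a tight wall between blood and nervous tissue. Strand proteins such as claudin-5 and occludin seal the clefts between neighbouring cells and are tied to actin by scaffold proteins such as ZO-1, while glucose carriers and drug efflux pumps control what crosses the cells. Angiopoietin, VEGF and Wnt signals, together with pericytes, the basement membrane and astrocyte endfeet, keep this state, and seizures are known to open the barrier in limbic regions.

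Median signals per array lay between 29.0 and 43.2, with letter A arrays at 34.9 to 43.2 and letter B arrays at 29.0 to 33.8. Arrays correlated with each other at 0.846 to 0.963. The 3′ probe set of beta-actin exceeded its 5′ probe set by 1.87 to 3.63 on the log2 scale in letter A arrays and by 3.82 to 4.45 in letter B arrays. That difference ran from 1.87 to 4.42 in control arrays and from 3.07 to 4.45 in epileptogenic arrays. For GAPDH the ranges overlapped and letter A reached higher, at 3.35 to 4.19 in letter A arrays and 3.09 to 3.69 in letter B arrays. The labelled tissue carried neuronal markers, with Snap25 of synaptic terminals at a log2 signal of 12.25 to 13.45 and Gad1 of GABAergic neurons at 10.54 to 12.20 over all arrays. Slc17a7 of glutamatergic neurons was far dimmer, at 3.98 to 5.89, near the filter level of 4.35. Of 7 neuronal markers with a probe set, 1 was under that level. In such mixed tissue, fewer cells of a type and less RNA per cell cannot be told apart.

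**Figure D1:**
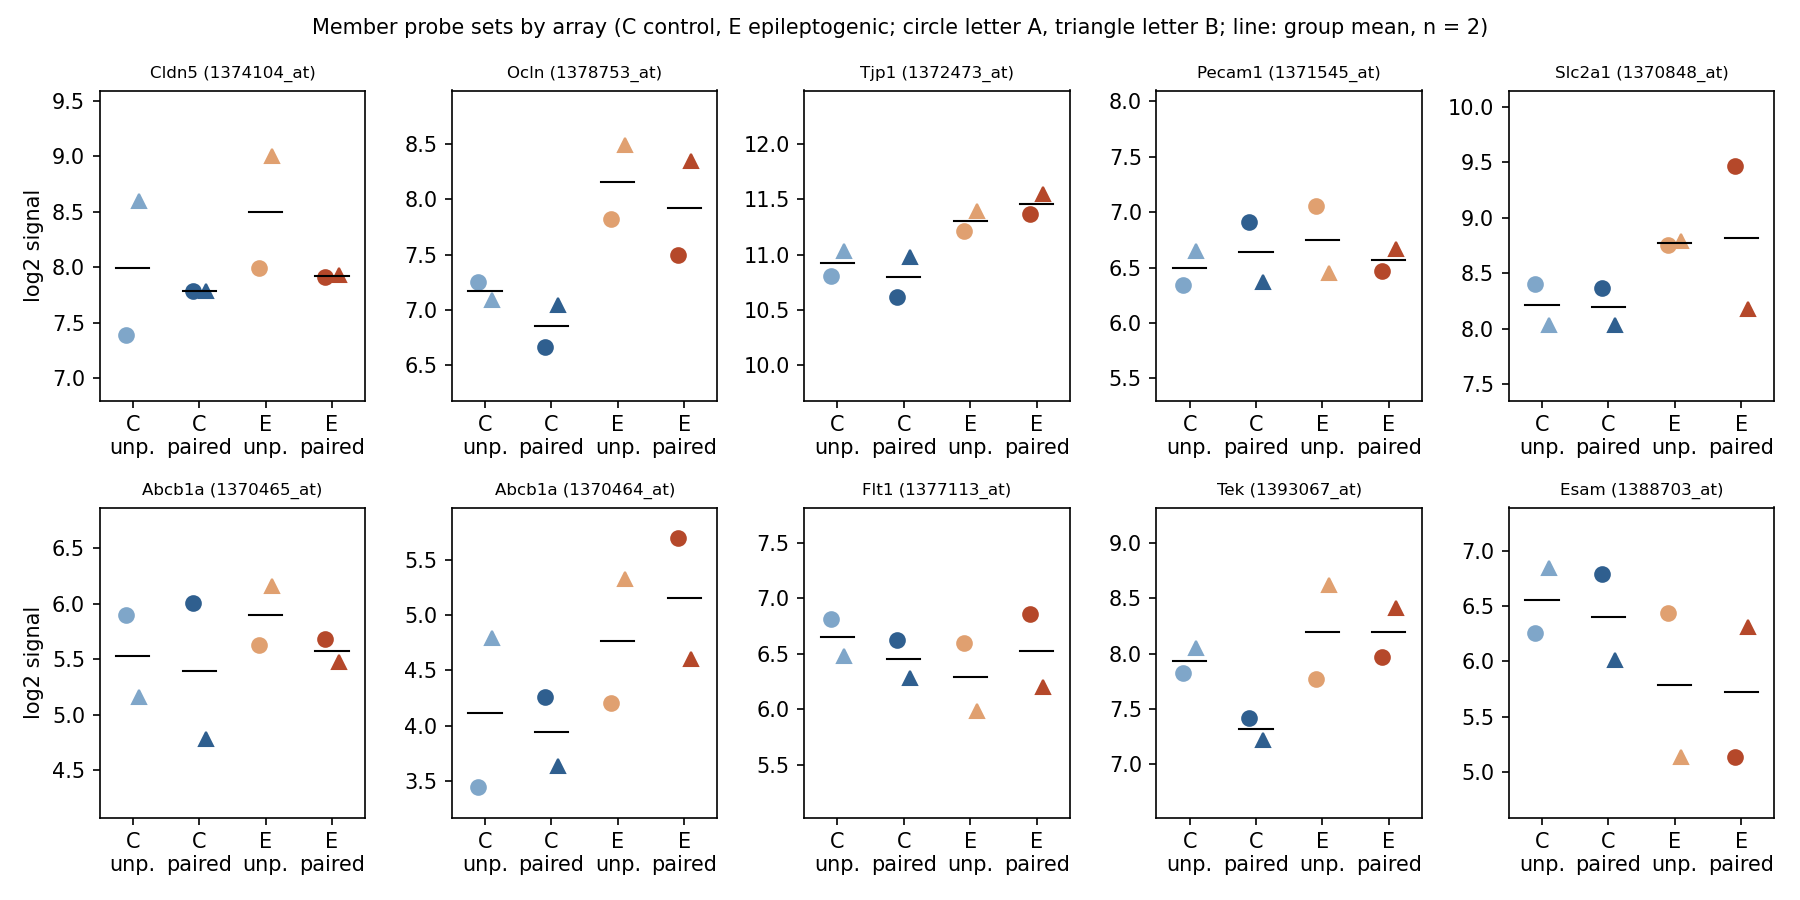
Log2 signal of the members' tested probe sets (vertical axis) on each of the 8 arrays, with control groups to the left of epileptogenic groups in each panel, circles for letter A, triangles for letter B, lines at group means and a vertical axis of its own for each probe set. For Ocln all 4 epileptogenic arrays (7.50 to 8.49) lie above all 4 control arrays (6.67 to 7.25), as they do for Tjp1 (11.22 to 11.55 against 10.62 to 11.03), whereas the groups overlap for the other genes.

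The main comparison set the 4 epileptogenic arrays against the 4 control arrays, with both trainings averaged. Occludin (Ocln) and ZO-1 (Tjp1) were brighter on every epileptogenic array than on any control array, by 1.02 ± 0.26 and 0.52 ± 0.16 on the log2 scale (SE, n = 4 arrays a side). None of the members passed the limma test at an adjusted p of 0.05: the count was 0 of 10 probe sets, against 3.63% of all 18625 tested (677, of which 523 were higher). At an unadjusted p under 0.05, 3 of 10 passed, namely Ocln, Tjp1 and Tek, against 18.4% of all. Arrays of 1 letter deviated together across the groups, and with the letter as a replicate block 2 of 10 passed, Ocln and Tjp1, both higher, against 16.2% of all probe sets called in that fit (7.58% higher and 8.65% lower). Groups that did not overlap, with the epileptogenic arrays higher, were found for 2 of 10 members and for 7.29% of all probe sets. Differences ran from -0.72 (Esam) to 1.02 (Ocln), 8 positive and 2 negative, with a median of 0.42, where the median of all tested probe sets was -0.11. One of the positive ones, Abcb1a (1370464_at), passed the filter through its epileptogenic arrays alone.

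**Figure D2:**
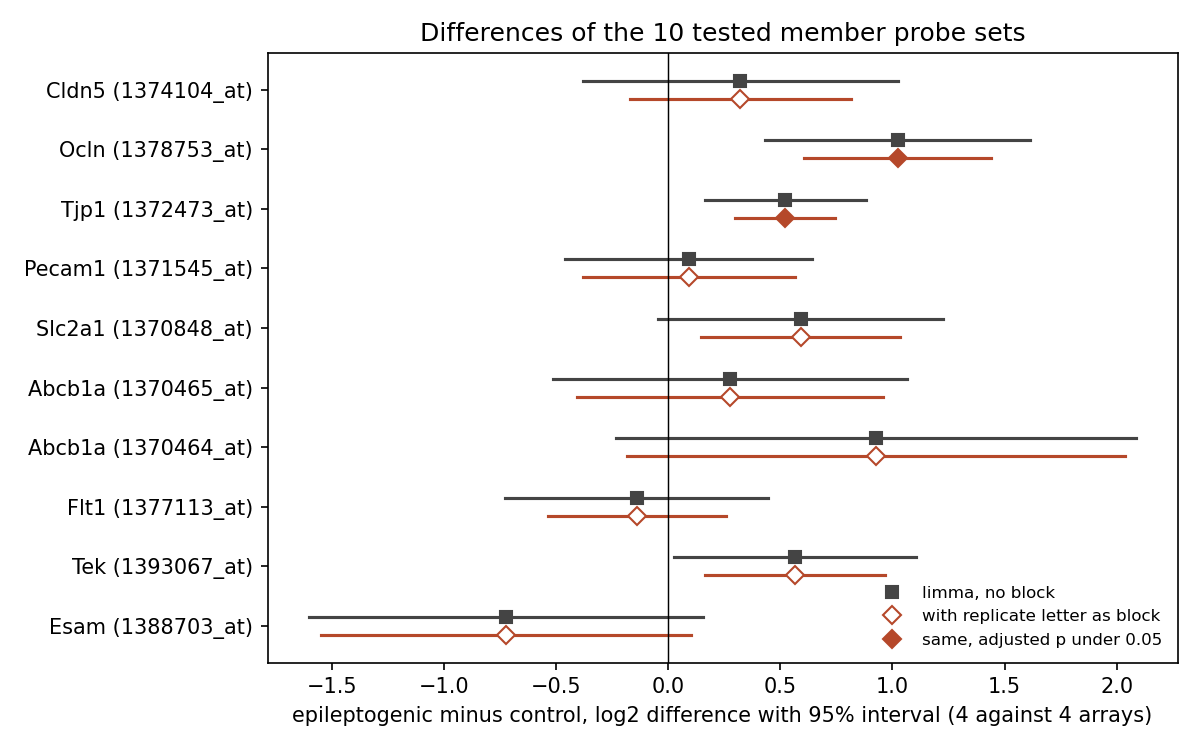
Difference between epileptogenic and control arrays on the log2 scale (horizontal axis) for each tested member probe set, with 95% confidence intervals of the fits without and with the replicate block. Without the block, the intervals of Ocln (0.43 to 1.61), Tjp1 (0.16 to 0.88) and Tek (0.03 to 1.11) lie above 0, and the other 7 include it. With the block, the interval of Slc2a1 (0.15 to 1.04) also lies above 0.

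Ocln and Cldn5 encode strand proteins of the tight junction and Tjp1 encodes its scaffold. Windows at their gene starts are shown because Ocln and Tjp1, which passed with the replicate block, had groups that did not overlap, and Cldn5 had groups that did. The Tjp1 window may lie within the gene and not at its promoter, which was not tested. It therefore cannot be set against the Ocln window. Each runs from 250 bases before to 50 bases after the gene start in RefSeq (build GRCr8), and all 3 genes lie on the minus strand: Ocln at chr2:33441149-33441448, Tjp1 at chr1:128325311-128325610 and Cldn5 at chr11:95718549-95718848. Capitals mark the E-box CAGGTG, the kind of site that repressors of epithelial junction genes such as Snail bind, searched on both strands (CACCTG on the other).
Ocln: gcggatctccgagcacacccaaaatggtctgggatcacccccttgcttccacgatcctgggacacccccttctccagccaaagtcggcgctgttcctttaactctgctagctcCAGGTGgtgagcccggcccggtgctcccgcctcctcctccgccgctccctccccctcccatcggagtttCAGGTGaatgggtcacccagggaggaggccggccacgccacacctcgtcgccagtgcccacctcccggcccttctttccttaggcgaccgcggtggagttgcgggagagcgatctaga
Tjp1: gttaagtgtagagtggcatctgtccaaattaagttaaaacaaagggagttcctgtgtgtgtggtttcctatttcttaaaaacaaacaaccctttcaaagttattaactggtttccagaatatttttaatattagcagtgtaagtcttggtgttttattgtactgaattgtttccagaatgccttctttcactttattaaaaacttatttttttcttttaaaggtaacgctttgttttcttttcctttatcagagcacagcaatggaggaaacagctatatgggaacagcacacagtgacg
Cldn5: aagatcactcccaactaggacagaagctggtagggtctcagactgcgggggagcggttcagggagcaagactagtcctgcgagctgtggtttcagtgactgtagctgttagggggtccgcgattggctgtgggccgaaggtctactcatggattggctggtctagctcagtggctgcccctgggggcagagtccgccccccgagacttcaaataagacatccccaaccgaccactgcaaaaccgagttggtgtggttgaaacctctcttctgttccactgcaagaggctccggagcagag
The Ocln window holds 2 copies, starting 137 and 68 bases before the gene start, and the Tjp1 and Cldn5 windows hold none of these letters. Such windows were found for 6 members (also Slc2a1, Abcb1a and Flt1), and Ocln alone has the motif among them. At least 1 copy is in 18.8% of the 33469 promoters of the table, and at least 2 copies are in 2.52%. A match of letters is a description of the sequence and not a binding site.

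Ocln, occludin, was read by 2 probe sets. The brighter one (1378753_at) gave log2 signals of 7.25 and 7.09 on the control unpaired arrays, 6.67 and 7.05 on the control paired arrays, 7.82 and 8.49 on the epileptogenic unpaired arrays, and 7.50 and 8.34 on the epileptogenic paired arrays, in the order A, B. All epileptogenic arrays were above all control arrays, and letter B was the brighter of each epileptogenic pair. The means were 8.04 ± 0.46 and 7.01 ± 0.25 (SD, n = 4), a 2.03-fold difference of 1.02 ± 0.26 on the log2 scale (SE, 95% interval 0.43 to 1.61). This did not pass over all probe sets (limma adjusted p = 0.0688), and it passed with the replicate block (adjusted p = 0.00615). The letter A arrays alone differed by 0.70 and the letter B arrays alone by 1.35.

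The call for Ocln also turned on how the gene was read. When each of 10364 named genes was read by its brightest probe set and adjustment ran over those genes, Ocln passed (adjusted p = 0.0492) and was the 1 of 9 members to do so, against 5.82% of all genes in that fit. The second Ocln probe set (1398281_at) was too dim to test. It read 4.89 and 3.66, then 4.52 and 2.05 on the control arrays, and -0.19 and 4.25, then 4.07 and 4.10 on the epileptogenic arrays. Its means differed by -0.72, with overlapping groups, so the 2 probe sets of Ocln disagree in sign. With their mean as the gene's value the difference was 0.15 ± 0.53 (SE), and limma's adjusted p was 0.917.

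Tjp1 encodes ZO-1, the scaffold under the tight junction, which epithelia, astrocytes and neurons also make. Its bright probe set (1372473_at) read 10.81 and 11.03 on the control unpaired arrays, 10.62 and 10.98 on the control paired arrays, 11.22 and 11.40 on the epileptogenic unpaired arrays, and 11.37 and 11.55 on the epileptogenic paired arrays. The groups did not overlap. The means were 11.38 ± 0.13 and 10.86 ± 0.19 (SD, n = 4), a 1.44-fold difference of 0.52 ± 0.16 (SE). The limma adjusted p was 0.117, and 0.00775 with the replicate block. The letter A arrays alone differed by 0.58 and the letter B arrays alone by 0.47, and the overall difference stayed between 0.43 and 0.61 when any 1 array was left out. The dim probe set (1395337_at) read 2.04, 3.25, 2.69 and 3.09 on the control arrays and 2.02, 2.17, 4.64 and 2.86 on the epileptogenic arrays, which overlap. With the mean of both probe sets the difference was 0.34 ± 0.26 (SE, limma adjusted p = 0.545).

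Cldn5 encodes claudin-5, the main sealing claudin of brain endothelium. Its probe set (1374104_at) read 7.39 and 8.60 on the control unpaired arrays, 7.78 and 7.78 on the control paired arrays, 7.99 and 9.004 on the epileptogenic unpaired arrays, and 7.91 and 7.93 on the epileptogenic paired arrays. The unpaired groups each had 1 bright array, letter B in both, and the control and epileptogenic arrays overlapped. The difference was 0.32 ± 0.31 (SE, 95% interval -0.38 to 1.02), with a limma adjusted p of 0.636. This interval includes both no difference and a difference as large as that of Tjp1.

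Pecam1 and Esam are adhesion molecules of the contacts between endothelial cells, and Pecam1 is also carried by platelets and leukocytes. Pecam1 (1371545_at) read 6.34, 6.65, 6.91 and 6.37 on the control arrays and 7.05, 6.45, 6.47 and 6.67 on the epileptogenic arrays. These ranges nearly coincide, and the difference was 0.09 ± 0.24 (SE, 95% interval -0.46 to 0.64, limma adjusted p = 0.885).

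Esam (1388703_at) was the member with the lowest difference. It read 6.26, 6.84, 6.79 and 6.02 on the control arrays and 6.43, 5.14, 5.14 and 6.31 on the epileptogenic arrays. The epileptogenic unpaired B array and the epileptogenic paired A array were low, and the other epileptogenic arrays lay within the control range. The difference was -0.72 ± 0.39 (SE, 95% interval -1.60 to 0.16, limma adjusted p = 0.366). Cdh5, which encodes VE-cadherin, was not analysed here.

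Slc2a1 encodes GLUT1, the glucose carrier of the barrier, which astrocytes also make. Its probe set (1370848_at) read 8.40 and 8.03 on the control unpaired arrays, 8.36 and 8.03 on the control paired arrays, 8.76 and 8.79 on the epileptogenic unpaired arrays, and 9.47 and 8.17 on the epileptogenic paired arrays. The epileptogenic paired B array fell inside the control range and the other epileptogenic arrays were above it. The difference was 0.59 ± 0.28 (SE, 95% interval -0.05 to 1.23, limma adjusted p = 0.305, and 0.0723 with the replicate block).

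Abcb1a encodes P-glycoprotein, the efflux pump that keeps many drugs, several antiseizure drugs among them, out of the brain. One probe set (1370465_at) read 5.90, 5.16, 6.01 and 4.78 on the control arrays and 5.63, 6.16, 5.68 and 5.47 on the epileptogenic arrays, a difference of 0.28 ± 0.35 (SE, limma adjusted p = 0.730). The other (1370464_at) read 3.44, 4.79, 4.26 and 3.63 on the control arrays and 4.21, 5.33, 5.70 and 4.60 on the epileptogenic arrays, a difference of 0.93 ± 0.52 (SE, limma adjusted p = 0.382). This second probe set passed the filter through its epileptogenic arrays, since its control mean of 4.03 lay under the filter level. Both overlapped between the groups. For the first, letter A gave -0.30 and letter B gave 0.85, so its sign depended on the letter.

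Tek and Flt1 are receptors of the endothelial surface. Tek encodes Tie2, the receptor of the angiopoietins, and its probe set (1393067_at) read 7.82 and 8.05 on the control unpaired arrays, 7.42 and 7.22 on the control paired arrays, 7.77 and 8.62 on the epileptogenic unpaired arrays, and 7.97 and 8.41 on the epileptogenic paired arrays. The control paired arrays were the lowest, and the control unpaired arrays lay among the epileptogenic ones. The difference was 0.57 ± 0.24 (SE, 95% interval 0.03 to 1.11), with a limma adjusted p of 0.247, and 0.0586 with the replicate block. It was 0.25 on the letter A arrays alone and 0.88 on the letter B arrays alone.

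Flt1 encodes VEGF receptor 1, which binds VEGF and limits its action on the other VEGF receptors. Its brightest probe set (1377113_at) read 6.81, 6.48, 6.62 and 6.28 on the control arrays and 6.60, 5.98, 6.86 and 6.20 on the epileptogenic arrays. Letter A was brighter than letter B in each group, and the difference between epileptogenic and control was -0.14 ± 0.26 (SE, 95% interval -0.73 to 0.45, limma adjusted p = 0.825). Its 2 dim probe sets were not tested and overlapped between the groups. One (1369087_at) ran from 0.02 to 4.84 on the control arrays and from 0.78 to 3.93 on the epileptogenic arrays, and the other (1370492_a_at) from 1.17 to 3.56 and from 1.37 to 3.67.

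The same members were then compared within each training. After unpaired training 0 of 10 passed limma at an adjusted p of 0.05, against 0.317% of all probe sets. At an unadjusted p under 0.05, 1 of 10 (Ocln) passed against 12.5% of all, and with the replicate block 0 of 10 passed against 7.01% of all. After paired training 0 of 10 passed against 0.532%, 3 of 10 (Ocln, Tjp1 and Tek) at an unadjusted p under 0.05 against 9.92%, and 1 of 10 with the replicate block against 4.62%. That one was Tjp1, at 0.66 ± 0.23 (SE, n = 2 arrays a side), with a limma adjusted p of 0.329, and 0.0311 with the block. Ocln differed by 0.99 ± 0.37 after unpaired training and by 1.06 ± 0.37 after paired training. Tek differed by 0.26 ± 0.34 after unpaired and by 0.87 ± 0.34 after paired training, and the difference between these values was 0.61 ± 0.48 (SE, limma adjusted p = 1.00).

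Paired against unpaired training, averaged over control and epileptogenic rats, gave 0 calls among the members and 0% of all probe sets, with limma and with the replicate block. At an unadjusted p under 0.05 the count was 0 of 10 members and 1.15% of all probe sets. The members differed by -0.39 to 0.11, and their 95% intervals reached from -1.09 to 1.27. Whether the epileptogenic difference depended on training was tested as an interaction, which also gave 0 of 10 members and 0% of all probe sets, and at an unadjusted p under 0.05 0 of 10 members and 1.47% of all. The members' interaction values ran from -0.37 to 0.61 with intervals from -1.77 to 2.88. For Ocln the interval ran from -1.11 to 1.25 and included the size of its epileptogenic difference, and for Tjp1 it ran from -0.45 to 0.99.

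Other genes of brain vessels and their surroundings were read in 9 lists with 136 genes, each gene by its brightest probe set, and 99 were tested. Of these, 7 (7.07%) were higher in epileptogenic arrays and 0 lower in limma, where 3.75% of the 10364 named genes were higher. With the replicate block 24 were higher and 4 lower. For that fit the share is over all probe sets, named or not, with 7.58% higher and 8.65% lower. The share among named genes read by their brightest probe set was not computed with the block, so these values are not like for like. Leaving out 1 array gave 3 to 6 higher: 3 without the control paired A, epileptogenic unpaired B or epileptogenic paired A array, 4 without the control unpaired B or control paired B array, and at least 5 without any other. Fli1, Mylk and Nid1 passed in all 8 of these fits, and Fli1 and Mylk also on the arrays of either letter alone, where Nid1 did not. Jam2, Lamb2 and Sparc also passed on the arrays of either letter alone, and Tal1 with letter B only. The members' median, with each gene read by its brightest probe set, was 0.32, and that of all named genes was -0.07. In the lists below, counts at an unadjusted p under 0.05 stand against 18.4% of all probe sets. Counts with the block stand against 16.2%, both in either direction. Procr, Mcam and Ephb4 passed the filter through their epileptogenic arrays, with control means of 4.28, 4.33 and 3.86. Dll4, Kcnj8 and Des passed it through their control arrays, with epileptogenic means of 3.81, 4.20 and 4.34. None of these genes was called.

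**Figure D3:**
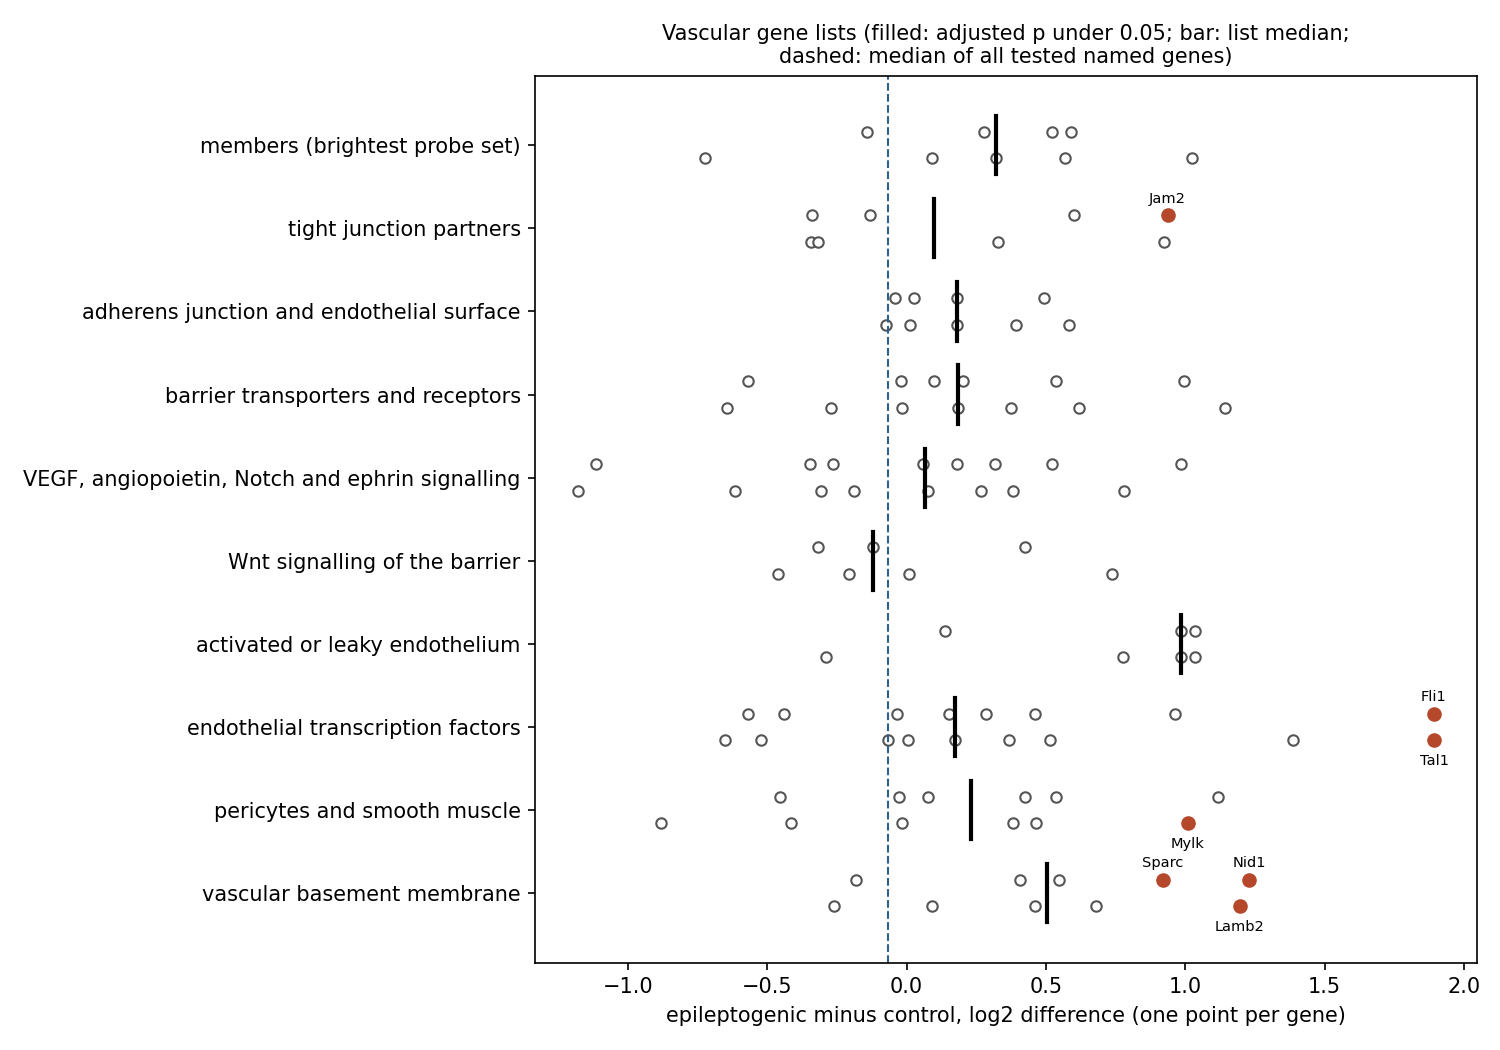
Difference between epileptogenic and control arrays on the log2 scale (horizontal axis) for the tested genes of the members and of 9 vascular lists, 1 point per gene, with filled points past an adjusted p of 0.05, bars at list medians and a dashed line at the median of all named genes. Fli1 and Tal1 lie farthest right at 1.89, and the list of activated or leaky endothelium has a median of 0.98 with no filled point. Procr of that list passed the filter through its epileptogenic arrays.

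Among tight junction partners, 1 of 8 tested genes rose, 0 fell and 7 did not pass, with a median of 0.10, and F11r and Jam3, further junctional adhesion molecules, rose besides it with the replicate block (0.60 ± 0.21 and 0.92 ± 0.30, SE). The gene that rose was Jam2, a junctional adhesion molecule of endothelium, at 8.80, 8.77, 8.55 and 8.46 on the control arrays and 9.49, 9.33, 9.96 and 9.55 on the epileptogenic arrays (0.94 ± 0.18, SE, limma adjusted p = 0.0226). Its call was lost when any array other than epileptogenic paired B was left out. Of the 8 differences 4 were positive. The claudin Cldn12 (-0.34 ± 0.19, SE) and Afdn, afadin (-0.34 ± 0.18), were lower on every epileptogenic array than on any control array. Neither passed (limma adjusted p = 0.385 and 0.343), nor with the block. The share of all probe sets lower without overlap was not computed. Of 9 adherens junction and surface genes 0 passed limma (median 0.18). At an unadjusted p under 0.05 the count was 1, against 18.4% of all probe sets, and with the block 1, against 16.2%. Both counts are Ctnna1, alpha-catenin, at 0.49 ± 0.18 (limma adjusted p = 0.176, and 0.0315 with the block).

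Of 13 transporters and receptors of the barrier, 0 passed limma (median 0.19). At an unadjusted p under 0.05 the count was 5, against 18.4% of all probe sets. With the block 4 rose, namely Abcg2, the anion transporter Slco1a4 (0.53 ± 0.17, SE), the amino acid carrier chain Slc3a2 (0.62 ± 0.18) and the lactate carrier Slc16a1 (1.00 ± 0.28), and the transferrin receptor Tfrc fell (-0.57 ± 0.18). Abcg2, a drug efflux pump next to P-glycoprotein, read 5.02, 5.17, 5.71 and 4.92 on the control arrays and 6.22, 6.85, 6.30 and 6.01 on the epileptogenic arrays. Its groups did not overlap, and it differed by 1.14 ± 0.29 (SE, limma adjusted p = 0.0668, and 0.0189 with the block). Abcb1b was not analysed here.

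Of 16 genes of VEGF, angiopoietin, Notch and ephrin signalling, 0 passed limma (median 0.07) and 2 had an unadjusted p under 0.05. Over all probe sets 18.4% had such a p and 16.2% were called with the block. With the block Notch1 was higher (0.78 ± 0.21, SE) and 1 gene lower, Vegfa, the growth factor that Flt1 and Kdr bind. It read 9.40, 8.75, 9.34 and 8.57 on the control arrays and 8.57, 7.56, 7.83 and 7.64 on the epileptogenic arrays, so the epileptogenic unpaired A array lay at the level of the lowest control array. The difference was -1.12 ± 0.29 (SE, limma adjusted p = 0.0719), and it passed with the block (adjusted p = 0.00170) and when that array was left out. Kdr, VEGF receptor 2, differed by 0.06 ± 0.21 (limma adjusted p = 0.918). Angpt2, the angiopoietin that can oppose Tie2 signalling, was too dim to test, at 3.34, 3.40, 4.28 and 2.69 on the control arrays and 4.50, 4.94, 4.38 and 4.44 on the epileptogenic arrays, all of them above the controls.

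Of 7 genes of the Wnt pathway of the barrier, 0 passed limma (median -0.12). At an unadjusted p under 0.05 the count was 1, against 18.4% of all probe sets, and with the block 1, against 16.2%. Both counts are Lef1, a nuclear effector of Wnt signals, at 0.74 ± 0.18 (limma adjusted p = 0.0644, and 0.00839 with the block). Of 7 genes of activated or leaky endothelium, 0 passed limma (median 0.98) and 4 at an unadjusted p under 0.05. That median includes Procr (1.04 ± 0.47, SE), which passed the filter through its epileptogenic arrays. With the block 4 rose, Vcam1 together with von Willebrand factor (Vwf, 0.98 ± 0.29, SE), caveolin-1 (Cav1, 1.03 ± 0.29) and tissue plasminogen activator (Plat, 0.98 ± 0.30). Vcam1, which binds leukocytes and is also made by astrocytes, differed by 0.78 ± 0.18 (limma adjusted p = 0.0548, and 0.00279 with the block). Plvap, the diaphragm protein of leaky vessels, differed by -0.29 ± 0.45 (limma adjusted p = 0.790). Icam1, another leukocyte ligand, was too dim to test, at 1.13 to 2.27 on the control arrays and 1.65, 5.43, 4.85 and 4.40 on the epileptogenic arrays.

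Among 17 endothelial transcription factors 2 rose, 0 fell and 15 did not pass (median 0.17), and with the block Ets1 (0.96 ± 0.41, SE) and Lmo2 (1.38 ± 0.33) were also higher while Ets2 (-0.52 ± 0.18) and Nr2f2 (-0.57 ± 0.36) were lower. Fli1, an ETS factor of endothelium that blood cells and microglia also carry, read 7.52, 7.67, 6.94 and 6.84 on the control arrays and 8.84, 9.27, 9.32 and 9.11 on the epileptogenic arrays (1.89 ± 0.19, SE, limma adjusted p = 0.00237). Tal1, a factor of endothelial and blood-forming cells, read 4.30, 6.01, 6.07 and 6.18 and then 7.26, 7.84, 7.31 and 7.73 (1.89 ± 0.36, SE, limma adjusted p = 0.0246), and its call held in 3 of the 8 fits without 1 array.

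Among 12 genes of pericytes and smooth muscle 1 rose, 0 fell and 11 did not pass (median 0.23), and Cspg4, which oligodendrocyte precursors also carry, was higher with the block (1.12 ± 0.35, SE). The gene that rose was Mylk, myosin light chain kinase, at 9.52 to 9.58 on the control arrays and 10.43 to 10.69 on the epileptogenic arrays (1.01 ± 0.15, SE, limma adjusted p = 0.00953). Mylk is not limited to mural cells. Pdgfrb, the defining receptor of pericytes, was too dim to test, at 3.91 to 4.99 on the control arrays and 3.09 to 4.93 on the epileptogenic arrays.

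Among 10 genes of the vascular basement membrane 3 rose, 0 fell and 7 did not pass (median 0.50), and the laminin chain Lamc1 was higher with the block (0.68 ± 0.21, SE). Nid1, nidogen-1, which links laminin to collagen IV, read 8.72, 8.80, 7.60 and 7.42 on the control arrays and 9.12, 8.86, 9.83 and 9.64 on the epileptogenic arrays (1.23 ± 0.18, SE, limma adjusted p = 0.00710). Its epileptogenic difference was 0.23 ± 0.25 after unpaired and 2.23 ± 0.25 after paired training, and the interaction of 2.00 ± 0.35 (SE) did not pass (limma adjusted p = 1.00). Lamb2, a laminin chain, differed by 1.20 ± 0.21 (limma adjusted p = 0.0192), and Sparc, a matrix protein that many cell types secrete, by 0.92 ± 0.20 (limma adjusted p = 0.0373). Their calls held in 2 and 1 of the 8 fits without 1 array.

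Markers of other cells moved with the same comparison. Of 8 tested microglia and macrophage markers 7 rose in limma, where 3.75% of the 10364 named genes were higher. The other, Cx3cr1, differed by -0.40 ± 0.58 (SE, limma adjusted p = 0.763). The mean of all 8 stood 1.74 to 2.55 above the control mean on the epileptogenic arrays, where control arrays ran from -0.78 to 0.37 (log2). One of the 7, Cd68, passed the filter through its epileptogenic arrays (control mean 4.12). That count was 2 to 6 when 1 array was left out, with 2 without the epileptogenic unpaired B array, 3 without epileptogenic paired A, and 4 without control paired A or epileptogenic paired B. Over all 9 microglia and macrophage markers with a probe set, 1 of them under the filter level, the summed signal was 619 to 947 in control arrays. In epileptogenic arrays it was 3208 to 5736. Of 8 astrocyte markers 2 rose, Gfap at 2.83 ± 0.29 (SE, limma adjusted p = 0.00237) and the endfoot water channel Aqp4 at 0.84 ± 0.16 (limma adjusted p = 0.0227), and their summed signal was 13782 to 23881 and 20200 to 25265. Gfap passed in all 8 fits without 1 array and Aqp4 in 2 of them. The 6 astrocyte markers not called differed by -0.38 (Gjb6) to 0.61 (S100b), and S100b passed with the block.

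In the other marker lists limma called 0 genes. At an unadjusted p under 0.05 the counts were 4 of 5 for meninges and fibroblasts, 2 of 6 for neurons and 1 of 4 for oligodendrocytes. They were 0 of 3 for choroid plexus and 0 of 1 for red blood cells, against 18.4% of all probe sets. The 5 markers of meninges and fibroblasts had a mean of 0.78 to 2.44 on the epileptogenic arrays and -0.57 to 0.47 on the control arrays, with summed signals of 490 to 1484 and 223 to 367, and Lum, Col1a1, Col1a2 and Ogn rose with the replicate block. With the block the neurofilament Nefl also fell and the myelin gene Mobp rose. The 6 neuronal markers had a mean of -0.98 to -0.23 on the epileptogenic arrays and -0.13 to 0.07 on the control arrays, with summed signals of 7597 to 13752 and 11526 to 17352 over 7 markers. Oligodendrocyte markers summed to 5485 to 12541 and 4526 to 5421. The sums over all 4 choroid plexus markers with a probe set were 408 to 4983 and 223 to 5163. For the 3 red blood cell markers with a probe set they were 64.3 to 160 and 146 to 223. All 6 markers of platelets and granulocytes and all 5 of lymphocytes with a probe set were under the filter level, with sums of 82.8 to 109 and 67.6 to 84.0 for the first and 26.3 to 66.4 and 62.7 to 88.5 for the second. In each of these pairs the epileptogenic range comes first.

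The members' mean was 0.19 to 0.38 above the control mean on the epileptogenic arrays and -0.24 to 0.14 on the control arrays. Their summed signal was 3879 to 4663 and 2790 to 3486, and 9 of 9 genes with a probe set were above the filter level. A large part of that sum was Tjp1, which other cells also make, at 2381 to 2989 on the epileptogenic and 1573 to 2096 on the control arrays. The part that microglia, astrocytes or fibroblasts had in the values of Ocln, Tjp1 or the vascular lists was not tested.

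**Figure D4:**
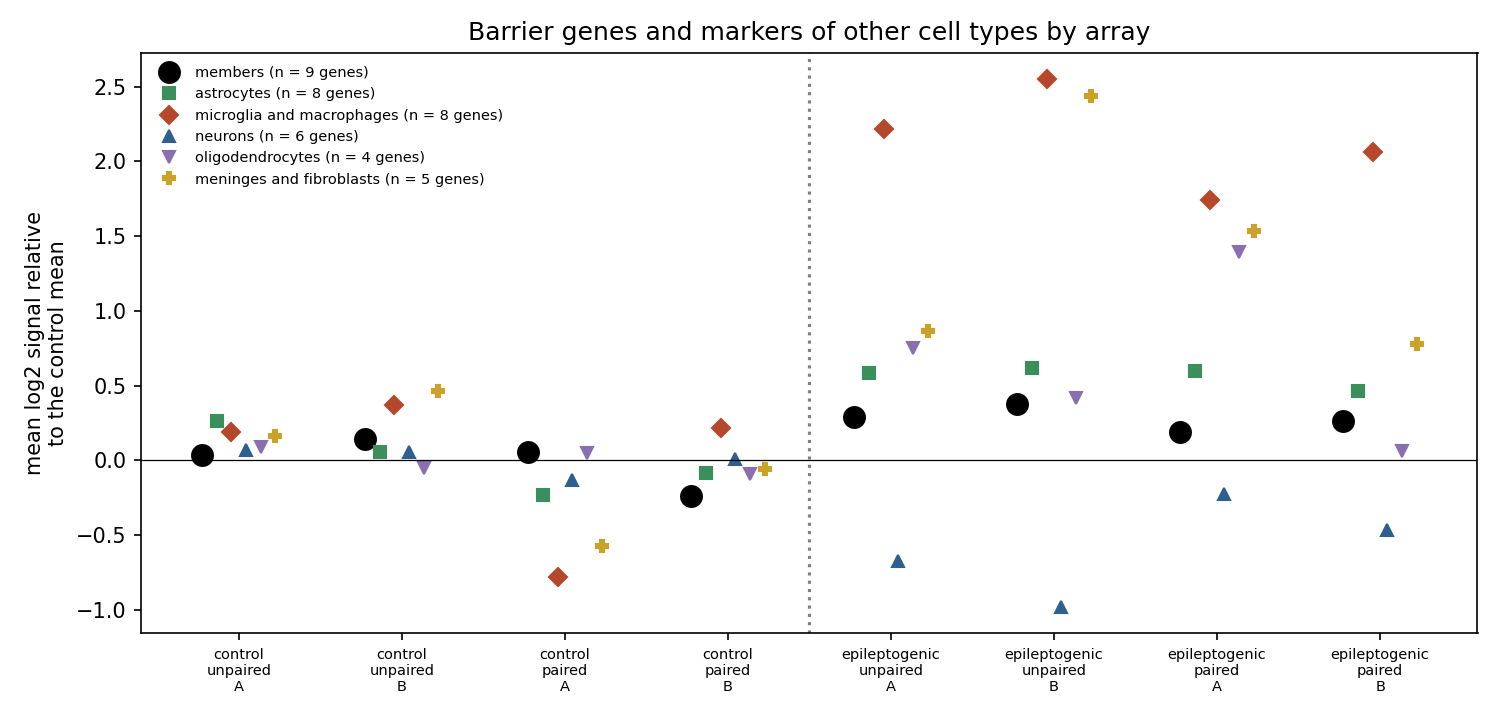
Mean log2 signal of the tested markers of each cell type on each of the 8 arrays, relative to that list's control mean (vertical axis). The members' means on the epileptogenic arrays (0.19 to 0.38) lie just above their control range (-0.24 to 0.14), while microglia and macrophage markers lie at 1.74 to 2.55.

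The genes whose profile over the 8 arrays was most like the members' mean profile, among 10355 other named genes, were Fam83d, Slc15a3, Rab38, Bag3 and Atp1b2, with Pearson correlations of 0.981, 0.971, 0.970, 0.965 and 0.960. The 8 points share the groups and letters, so the values are a description. None of these genes passed the comparison of epileptogenic with control arrays, with limma adjusted p-values of 0.124 to 0.260.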

How the data were processed

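Affymetrix Rat Genome 230 2.0 arrays measured the RNA. Each probe set has a deposited signal intensity, linear in scale, which the authors made with MAS5 per the submitters' processing notes. The MAS5 version and scaling target are not given in the sources used here. Signals were taken to log2 from the deposited intensities with no further normalization. MAS5 subtracts mismatch signal, so low values are noisy, and the number of arrays limits the precision.

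The 57 control probe sets were left out, and of the other 31042 probe sets the 18625 whose log2 signal, averaged over the arrays, exceeded the 40th percentile were tested. Probe sets with a single symbol in GEO's platform annotation were named (20826, with 436 having several symbols and 9780 none). Their gene IDs matched RefSeq for 20758, with 0 symbols changed. In the lists, the probe set of highest mean signal stands for its gene.

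One limma 3.58.1 fit in R 4.3.3 of 4 group means, with an intensity trend, gave 5 comparisons, whose two-sided moderated p-values were adjusted by Benjamini-Hochberg over all tested probe sets, with a threshold of 0.05. SE and 95% intervals come from this fit, and SD is between arrays. The labels call the arrays biological replicates, so p-values measure the spread between pools of rats. The script was tested on simulated data. Letters A and B are the labels' own. Deviations from the group means of arrays with the same letter correlated at 0.321 to 0.407 in all 6 pairs of groups, so the letter was also fitted as a replicate block. What the letters stand for is not given in the sources used here.

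The members and lists were chosen with earlier results of these data known. Named are all members, at most 3 genes that passed with the smallest adjusted p from each list or, where none passed, the 1 with the smallest p, 8 genes always (Vegfa, Angpt2, Kdr, Pdgfrb, Icam1, Plvap, Aqp4 and Abcb1b), and the 5 genes most like the members' mean. Gfap, Snap25, Gad1, Slc17a7, Cd68, Cx3cr1, Gjb6 and the genes called with the block alone were named after their values were seen. So were Cldn12, Afdn, Procr, Mcam, Ephb4, Dll4, Kcnj8 and Des. Alternatives covered the block, normalization, offset, filter, trend, array weights, other groupings of the arrays and leaving out each array. Python 3.11.15 and matplotlib 3.10.9 made the figures.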

Additional observations from a re-analysis of the deposited data

How the results depend on the processing

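With 0 of 10 member probe sets called, the count stayed 0 after quantile normalization, median centring, an offset of 16, no intensity trend, array weights, letter A alone, and in each fit without 1 array. The count was also 0 of 14 with no filter, where 1.86% of all probe sets were called. With a filter at the 60th percentile it was 0 of 8, against 5.8% of all. It was 2 with the replicate block (Ocln and Tjp1), 1 with 2 group means and 1 with letter B alone (Ocln in both), and after paired training 1 with the replicate block (Tjp1). The block changed no other member's call. Read as genes, 1 member passed by its brightest probe set, and 0 of 8 passed by the mean of its probe sets, where Flt1 fell under the filter. Over the fits to probe sets the adjusted p of Ocln ran from 0.00472 to 0.215 and that of Tjp1 from 0.00775 to 0.344, and with the mean of the probe sets they were 0.917 and 0.545.

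Signs turned for some members. With letter A alone Abcb1a (1370465_at) was -0.30 and Flt1 0.012. Leaving out 1 array gave -0.031 to 0.58 for Abcb1a (1370465_at), -0.058 to 0.24 for Pecam1 and -0.31 to 0.025 for Flt1. After unpaired training the ranges were -0.026 to 1.32 (Abcb1a, 1370464_at), -0.0021 to 0.74 (Abcb1a, 1370465_at), -0.045 to 0.56 (Pecam1), -0.10 to 1.11 (Cldn5) and -0.16 to 0.68 (Tek). After paired training they were -0.43 to 0.80 (Abcb1a, 1370465_at), -0.024 to 1.27 (Slc2a1), -0.34 to 0.20 (Pecam1) and -0.26 to 0.41 (Flt1). The cause was not tested.

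Of all probe sets, 677 were called, 77.3% of them higher. Median centring gave 389, 96.9% higher, and moved the median difference from -0.11 to -0.0050. The count was 3022 with the replicate block (46.7% higher), 330 without the trend, 1261 with 2 group means, 1321 with letter B alone and 224 to 435 without 1 array. Over the 99 list genes, 4 were higher after median centring or without the trend, and 13 with 2 group means or letter B alone. With 2 arrays a group, differences under about the intervals given could not be resolved.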
